A study of Mus musculus with 19 samples.

Results

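The genes described here are 37 mouse genes of the lysosome, taken as a fixed set by their known function: the TFEB family of transcription factors (3 genes), membrane proteins (5), acid hydrolases with their cofactors (18) and subunits of the V-ATPase proton pump (11). They were found on the arrays through the RefSeq accessions of their probes, as 59 probes out of 56605. All 37 were among the 25599 genes tested, were well above background on all 19 arrays and were saturated on none.

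Levels were measured in hippocampal RNA of 8-month-old mice, with 1 Agilent array per sample and Cy3 cRNA made from 200 ng of total RNA. There were 6 WT littermates on vehicle (DMSO by gavage) and 7 APP/PS1 mice on the same vehicle. A further 6 APP/PS1 mice received urolithin A (UA) in DMSO by gavage at 200 mg per kg per day. Dosing ran from 6 to 8 months of age in all 3 groups, so every mouse, WT included, received DMSO. APP/PS1 mice, here from the Jackson laboratory strain, carry transgenes for mutant human amyloid precursor protein and presenilin and deposit amyloid in the brain. UA is formed from plant ellagitannins by bacteria of the gut. Arrays per group match the mice per group that the design gives, so 1 array stands for 1 mouse. There was no UA group of WT mice, so UA was compared with vehicle on the APP/PS1 background alone.

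Lysosomes digest proteins, glycans, lipids and glycogen with hydrolases that work at acid pH. The V-ATPase makes that pH: its V1 ring hydrolyses ATP in the cytosol and its V0 ring carries protons across the membrane. TFEB, TFE3 and MITF enter the nucleus when nutrients are short or lysosomes are damaged and switch on many of these genes by binding an E-box in their promoters. In the brain, microglia that engulf amyloid carry many lysosomes, while neurons use the same pump on lysosomes and to fill synaptic vesicles. Urolithin A is known as an inducer of mitophagy, the removal of mitochondria through lysosomes. The series compares APP/PS1 with WT to show what differs in the amyloid model, and UA with vehicle to show what differs with the compound.

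Levels are log2 values of the green signal, less the 75th percentile of the same array, so 0 is the level of that percentile and 1 unit is a 2-fold step. They compare 1 gene across arrays and not 1 gene with another, because probes differ in brightness. Differences between groups come from a limma fit over all genes and arrays. A gene was called at a Benjamini-Hochberg adjusted p under 0.05, and SE and 95% intervals are those of the fit.

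The arrays shared some features that touch the results. The 75th percentile ran from 450 to 1199 intensity units, 51.4% to 59.4% of probes were well above background, and correlations between arrays lay between 0.949 and 0.993. Both lowest values of depth belong to APP/PS1 vehicle replicate 3. All 6 WT arrays were on slide 1 with 2 of the vehicle arrays; the other 5 vehicle arrays shared slide 2 with 3 UA arrays, and the last 3 UA arrays had slide 3 to themselves. Sex, read from Xist and Y-linked transcripts, was female for 1 WT, 3 vehicle and 1 UA mouse. Markers of choroid plexus, a tissue that lies against the hippocampus, differed far more between arrays than between groups: their mean ran from -1.45 to 3.65 around the WT mean in WT arrays, from -3.87 to 4.30 in vehicle arrays and from -1.98 to 3.75 in UA arrays. Neuron, astrocyte, microglia and hippocampal pyramidal and granule markers were all measured, as the tissue label requires. In bulk tissue, fewer cells of a type and less RNA per cell cannot be told apart.

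APP/PS1 hippocampus on vehicle had higher RNA for 3 lysosomal hydrolases than WT hippocampus: Gusb by 1.51-fold, Man2b1 by 1.30-fold and Hexa by 1.25-fold. No other gene of the 37 was called, and none was called lower. All 3 calls were lost with slide as a block, a fit in which only slide 1 holds both genotypes (adjusted p = 0.0530 for Gusb, 0.196 for Man2b1 and 0.118 for Hexa). The V-ATPase genes lay on the other side of WT, with 10 of 11 differences below 0 and a median of -0.28, and none of the 11 passed the test. The 3 of 37 genes called compare with 1298 of 25599 genes tested (5.07%), of which 688 (2.69%) were higher and 610 (2.38%) lower. At an unadjusted p under 0.05, 6 of the 37 were higher and 10 lower, against 11.6% of all genes higher and 12.4% lower. The median difference of the 37 was -0.05 and that of all genes 0.0025.

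**Figure D1:**
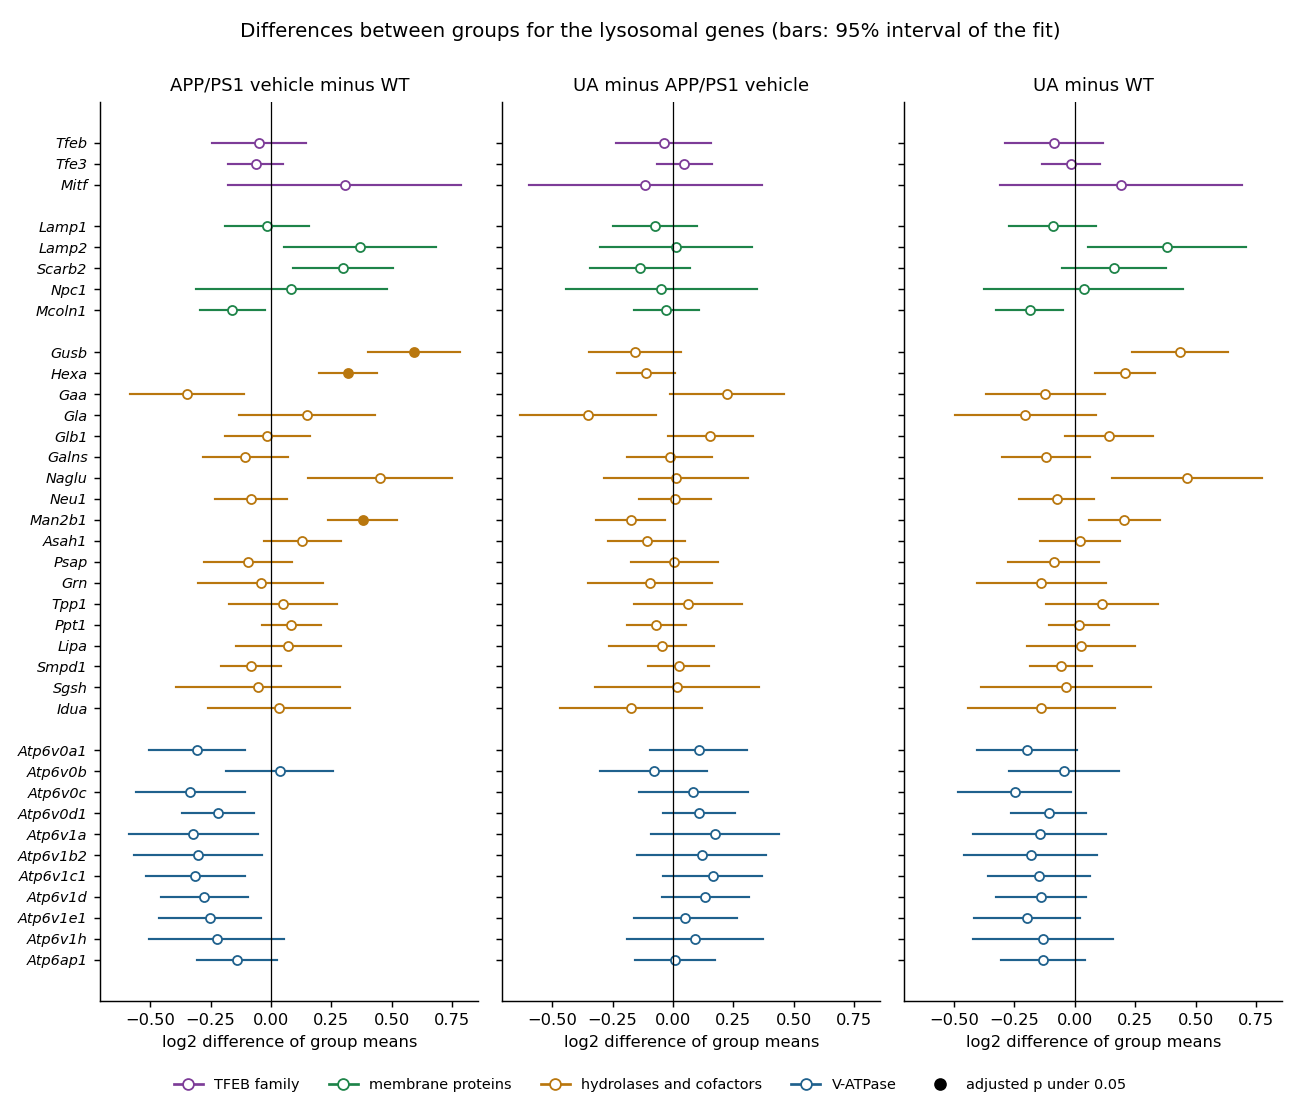
Log2 difference of group means (points) with the 95% interval of the fit (bars) for the 37 genes, grouped by role, in the 3 comparisons; filled points passed the test. Gusb, Hexa and Man2b1 are the filled points, in APP/PS1 vehicle minus WT alone, and 10 of 11 V-ATPase points lie below 0 there.

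The TFEB family did not differ between groups by the test. Tfeb, whose product is the best known of the 3 regulators, ranged from 1.01 to 1.30 on WT arrays (median 1.22), from 0.95 to 1.54 on vehicle arrays (median 1.11) and from 0.92 to 1.31 on UA arrays (median 1.07). The groups overlapped throughout, and the vehicle minus WT difference was -0.05 (SE 0.093, adjusted p = 0.768). Its 95% interval, from -0.24 to 0.15, does not exclude a small change in either direction. Tfe3, a close relative of Tfeb, ran from 2.77 to 2.96 in WT (median 2.87), from 2.62 to 2.86 in vehicle (median 2.83) and from 2.76 to 2.91 in UA (median 2.87). All 7 vehicle arrays lay below the WT mean of Tfe3, yet the difference of -0.06 (SE 0.054) did not pass (adjusted p = 0.483).

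Mitf, the member known for pigment cells and the eye, spread most. It ran from 0.68 to 1.57 in WT (median 0.73), from 0.44 to 2.05 in vehicle (median 1.23) and from 0.55 to 1.53 in UA (median 1.21). WT replicate 3 alone reached 1.57, and the other WT arrays lay at 1.04 or below. That array also had the highest choroid plexus markers of its group, at 3.65 above the WT mean. The highest vehicle value, 2.05, was on replicate 7, with choroid markers at 4.30, and the lowest, 0.44, was on replicate 3, with choroid markers at -3.87. The vehicle minus WT difference was 0.31 (SE 0.229, adjusted p = 0.423), and 0.03 (SE 0.102) with the choroid marker mean as a covariate, a setting chosen after the arrays were seen. The part of choroid plexus content in the Mitf values was not tested. The other probes of Mitf differed by 0.25 and 0.34, and dimmer probes of Tfeb by 0.24, 0.17 and -0.01, none past the test.

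Upstream control genes of the family gave no call either. Of 20 TFEB regulators (mTORC1, Rag GTPase, Ragulator, folliculin and calcineurin genes among them), 19 were tested and 0 passed in any comparison. Of all genes, 5.07% passed in vehicle against WT, 0% in UA against vehicle and 0.0938% in UA against WT, so 0 of 19 is near those shares. The regulators' vehicle minus WT median was -0.10, with 14 of 19 below 0, where 50.4% of all genes lay above 0.

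The promoters were searched for exact copies of an E-box core that TFEB binds. In the RefSeq table of stretches from 250 bases before to 50 after each gene's start (GRCm38.p6), 31 of the 37 genes had an entry. The E-box core CACGTG, which reads the same on both strands, occurred in 10 of the 31 (32.3%), against 1405 of 12729 tested genes with an entry (11.04%) and 8.09% of all 27025 genes in the table. The longer palindrome TCACGTGA, which contains that core and is near the form TFEB prefers, occurred in 4 of the 31 (12.9%), against 1.92% of tested genes. By role, the core was in 5 of 16 hydrolases, 2 of 4 membrane proteins, 3 of 8 pump subunits and 0 of 3 TFEB family genes. A match describes the letters and is not a shown binding site. A lack of match does not exclude a site, because variant forms and stretches outside the window were not searched.

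The 3 hydrolases called between genotypes had no CACGTG in that window. Their last 100 bases before the start are given first, followed by genes that carry the core, which is in capitals; all run 5′ to 3′ on the gene's strand. Gusb lies at chr5:130003050-130003149 (minus strand), Hexa at chr9:59539440-59539539 (plus), Man2b1 at chr8:85083169-85083268 (plus), Mcoln1 at chr8:3500419-3500518 (plus) and Naglu at chr11:101069994-101070093 (plus). The windows of Gla (240 to 181 bases before the start, chrX:134601186-134601245, minus), Atp6v1a (160 to 101 before, chr16:44139360-44139419, minus) and Atp6v0b (60 to 1 before, chr4:117887330-117887389, minus) are 60 bases long.
Gusb: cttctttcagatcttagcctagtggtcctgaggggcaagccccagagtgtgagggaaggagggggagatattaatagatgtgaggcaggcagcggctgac
Hexa: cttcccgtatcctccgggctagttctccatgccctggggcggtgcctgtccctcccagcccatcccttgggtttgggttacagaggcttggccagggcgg
Man2b1: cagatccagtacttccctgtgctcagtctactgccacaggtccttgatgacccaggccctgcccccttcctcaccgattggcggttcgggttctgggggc
Mcoln1: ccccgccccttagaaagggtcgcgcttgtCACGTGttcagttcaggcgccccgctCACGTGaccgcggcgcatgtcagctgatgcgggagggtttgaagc
Naglu: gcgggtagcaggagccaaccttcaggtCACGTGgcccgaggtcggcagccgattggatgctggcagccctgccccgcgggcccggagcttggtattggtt
Gla: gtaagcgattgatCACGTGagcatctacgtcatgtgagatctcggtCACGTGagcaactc
Atp6v1a: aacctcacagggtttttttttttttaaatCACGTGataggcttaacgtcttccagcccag
Atp6v0b: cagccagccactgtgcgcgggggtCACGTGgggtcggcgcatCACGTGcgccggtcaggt

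Mcoln1 has the core at 2 places, 71 and 45 bases before the start, the nearer one within TCACGTGA. Gla has it 227 and 194 bases before, both within TCACGTGA, and Atp6v1a 131 bases before, also within it. The 10 genes with the core stood on both sides of 0 in vehicle minus WT: Naglu at 0.45, Gla at 0.15 and Atp6v0b at 0.04 were above it, while Mcoln1 at -0.16, Atp6v0d1 at -0.22, Atp6v1a at -0.32 and Gaa at -0.35 were below it. Lamp1 at -0.02, Glb1 at -0.01 and Sgsh at -0.05 lay near 0, and none of the 10 was called.

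All 3 calls among the 37 genes were hydrolases. Gusb encodes β-glucuronidase, which removes glucuronic acid from glycosaminoglycans. Its level ran from -0.30 to 0.27 on WT arrays (median -0.02), from 0.42 to 0.69 on vehicle arrays (median 0.59) and from 0.20 to 0.60 on UA arrays (median 0.44). Every vehicle array lay above every WT array. Gusb was 0.59 higher in vehicle than in WT (SE 0.091, 95% interval 0.40 to 0.78, adjusted p = 0.00110).

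Hexa encodes the α subunit of β-hexosaminidase, the enzyme of ganglioside breakdown that is lacking in Tay-Sachs disease. It ran from 2.42 to 2.65 in WT (median 2.58), from 2.76 to 2.98 in vehicle (median 2.87) and from 2.67 to 2.87 in UA (median 2.76). Neither APP/PS1 group overlapped WT. The rise in vehicle was 0.32 (SE 0.057, 95% interval 0.20 to 0.44, adjusted p = 0.00458).

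Man2b1 encodes lysosomal α-mannosidase, which trims mannose from glycoproteins. It ran from 1.70 to 1.93 in WT (median 1.82), from 2.04 to 2.41 in vehicle (median 2.12) and from 1.94 to 2.06 in UA (median 2.04). Again no APP/PS1 array reached down to the WT range. The vehicle group was higher by 0.38 (SE 0.068, 95% interval 0.24 to 0.52, adjusted p = 0.00440). Groups did not overlap in vehicle against WT for Gusb, Hexa and Man2b1 alone among the 37. The share of all genes without overlap was not counted, here or for UA against WT, so no base rate stands beside it.

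**Figure D2:**
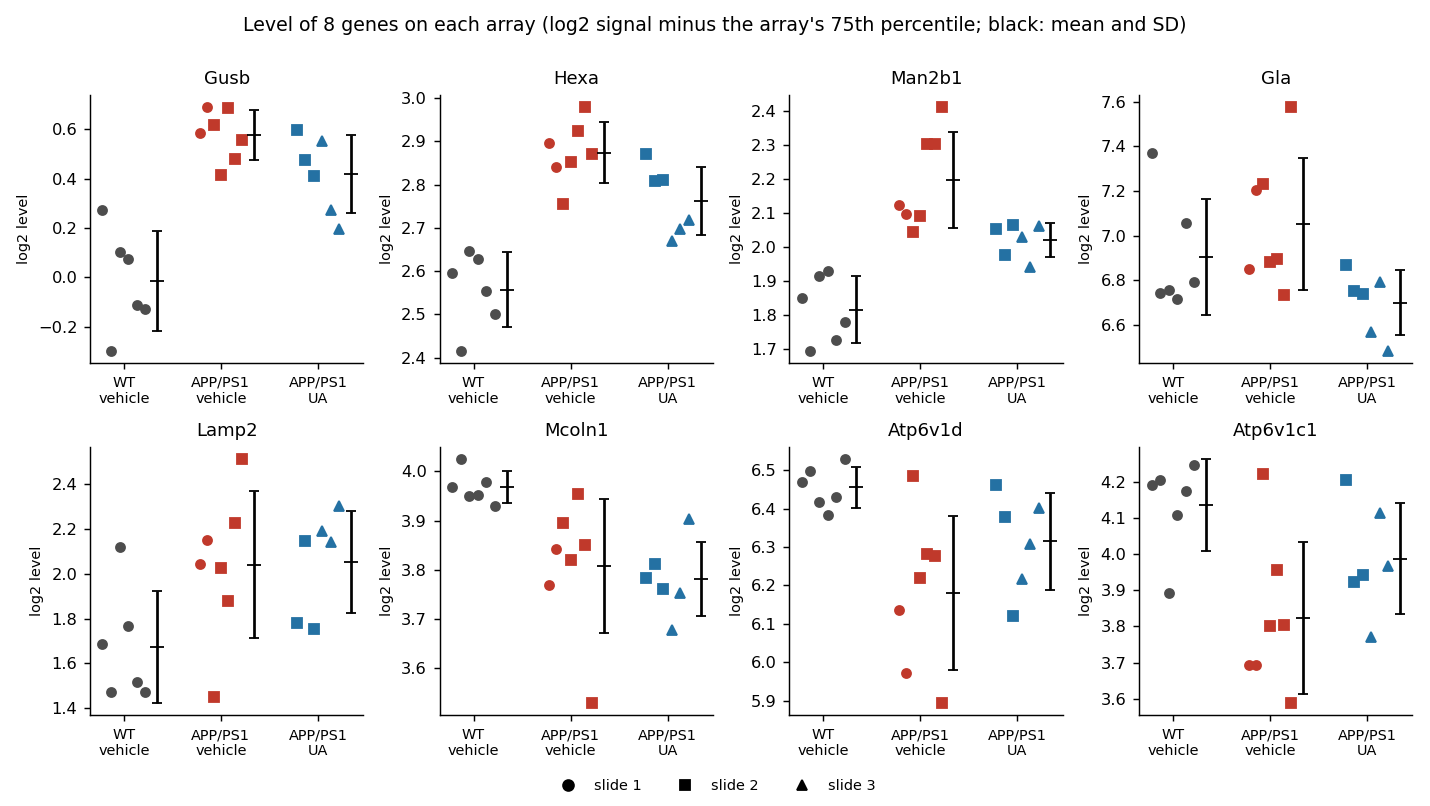
Log2 level, relative to the 75th percentile of its array, of 8 genes on each of the 19 arrays, by group, with the mean and SD in black and the slide as the symbol. For Gusb, Hexa and Man2b1 all vehicle points lie above all WT points, while for Lamp2, Mcoln1, Atp6v1d and Atp6v1c1 the vehicle and WT points overlap. For Mcoln1 the UA and WT points do not overlap.

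The remaining 15 hydrolase and cofactor genes did not pass. Naglu, an enzyme of heparan sulfate breakdown, was 0.45 above WT (SE 0.142, adjusted p = 0.0695), and Gaa, which splits lysosomal glycogen, 0.35 below it (difference -0.35, SE 0.113, adjusted p = 0.0777). Naglu's highest vehicle value, 3.08, was on replicate 7 and its lowest, 2.05, on replicate 3, the arrays with the highest and lowest choroid markers. With those markers as a covariate its difference was 0.32 (SE 0.110, adjusted p = 0.0907), and the part of choroid plexus content in it was not tested. Gla, which removes terminal galactose from glycolipids, differed by 0.15, and Asah1, acid ceramidase, by 0.13.

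The other 11 lay between -0.11 and 0.08. They were the galactosidase Glb1, the sulfatases Galns and Sgsh, the sialidase Neu1, the iduronidase Idua, the acid lipase Lipa, the sphingomyelinase Smpd1, the peptidase Tpp1, the thioesterase Ppt1, and Psap and Grn, which encode the precursors of the saposins and granulins. Probes of Grn disagreed: the brightest differed by -0.04, and the other 2 by 0.19 and 0.31 (adjusted p = 0.336 and 0.0868, over all kept probes). The second probe of Galns was at 0.10 where the first was at -0.11. The whole role list of 18 had a median difference of 0.04, with 10 above 0 and 8 below.

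Microglia and astrocyte markers were higher in vehicle along with the 3 called hydrolases. Of 12 microglia markers, 9 were called higher in vehicle than in WT, with a median difference of 0.69. The share of all genes called higher, for these and for the astrocyte markers below, was 2.69%. Returning to the microglia markers, their levels were as follows. Summed over the 12, their linear level ran from 97.2 to 129 in WT, from 136 to 171 in vehicle and from 109 to 142 in UA, in multiples of each array's 75th percentile. Their mean stood 0.75 ± 0.09 (SD, n = 7) above the WT mean in vehicle and 0.44 ± 0.17 (n = 6) in UA. Of 7 astrocyte markers, all lay above 0 in vehicle minus WT, with a median of 0.30, and 3 were called higher (Gfap, from a mean level of 3.02 to 4.02, Aqp4, by 0.47, and S100b, by 0.30). Their summed linear level ran from 77.7 to 93.0 in WT, 96.0 to 117 in vehicle and 95.9 to 115 in UA, and their mean stood 0.38 ± 0.09 (n = 7) and 0.31 ± 0.06 (n = 6) above WT. The part of either marker list in the hydrolase rise was not tested. With the choroid marker mean as a covariate the vehicle minus WT values were 0.61 for Gusb, 0.31 for Hexa and 0.36 for Man2b1, and all 3 remained called. That covariate was chosen after the arrays were seen, and the part of choroid plexus content in the hydrolase rise was not tested.

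Of 21 further membrane and transport proteins of the lysosome, measured beside the 37, 4 were called between genotypes, all higher, against 2.69% of all genes: Cd68, a lysosomal glycoprotein of phagocytes, by 0.80 (SE 0.103), Laptm5, a lysosomal membrane protein of blood-lineage cells, by 0.78 (SE 0.098), Cd63, a tetraspanin, by 0.57 (SE 0.155), and Npc2, which hands cholesterol to the limiting membrane, by 0.47 (SE 0.113). Of 5 mannose 6-phosphate sorting genes, which carry hydrolases to the lysosome, 0 passed, beside 5.07% of all genes in vehicle against WT.

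None of the 5 membrane proteins among the 37 was called in vehicle against WT. Scarb2, the receptor that brings β-glucocerebrosidase to lysosomes, ran from 0.64 to 1.11 in WT (median 0.77), from 0.91 to 1.44 in vehicle (median 1.02) and from 0.75 to 1.13 in UA (median 1.002). All 7 vehicle arrays lay above the WT mean, and only WT replicate 3, at 1.11, reached into their range. The difference was 0.30 (SE 0.099, adjusted p = 0.0827). Without WT replicate 3 it was 0.36 and passed (adjusted p = 0.0298).

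Lamp2, a main glycoprotein of the lysosomal membrane and the receptor of chaperone-mediated autophagy, ran from 1.47 to 2.12 in WT (median 1.60), from 1.45 to 2.51 in vehicle (median 2.05) and from 1.75 to 2.30 in UA (median 2.15). Its highest WT array was replicate 3, and its lowest vehicle array was replicate 3, again the arrays at the ends of their groups for choroid markers. The difference was 0.37 (SE 0.149, adjusted p = 0.145), and it passed at 0.47 (adjusted p = 0.0444) without vehicle replicate 3. With the choroid marker mean as a covariate it was 0.19 (SE 0.069, adjusted p = 0.106), and the part of choroid plexus content in it was not tested.

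Mcoln1, the calcium channel that opens on the lysosome when TFEB is to be activated, was tight in WT, at 3.93 to 4.03 (median 3.96), against 3.53 to 3.95 in vehicle (median 3.84) and 3.68 to 3.90 in UA (median 3.77). All 13 APP/PS1 arrays lay below the WT mean. The vehicle minus WT difference was -0.16 (SE 0.064, adjusted p = 0.140). Lamp1, the other abundant membrane glycoprotein, ran from 6.72 to 6.98 in WT (median 6.91), from 6.55 to 6.97 in vehicle (median 6.89) and from 6.58 to 6.98 in UA (median 6.78). Its difference of -0.02 (SE 0.082) changed sign under 9 other settings, and its second probe differed by 0.13 (adjusted p = 0.297 over all kept probes). Npc1, the cholesterol exporter, differed by 0.08 (SE 0.188).

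Nearly all of the 11 V-ATPase genes had a lower mean in vehicle than in WT, although 0 of 11 passed. Of the 11, 8 had an unadjusted p under 0.05, all lower, against 12.4% of all genes, and the smallest adjusted p was 0.0663. The exception in sign was Atp6v0b, a proteolipid of the membrane ring, at 0.04 (SE 0.105). The V0 median was -0.26 and the V1 median -0.29.

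Atp6v1d, the central shaft of V1, ran from 6.38 to 6.53 in WT (median 6.45), from 5.89 to 6.49 in vehicle (median 6.22) and from 6.12 to 6.46 in UA (median 6.34). Of 7 vehicle arrays, 6 lay below the WT mean and replicate 3, at 6.49, lay above it. The difference was -0.28 (SE 0.085, adjusted p = 0.0663). Atp6v1c1, the subunit whose contact holds V1 on V0, ran from 3.89 to 4.25 in WT (median 4.18), from 3.59 to 4.22 in vehicle (median 3.80) and from 3.77 to 4.20 in UA (median 3.95). Its difference was -0.31 (SE 0.097, adjusted p = 0.0665), again with replicate 3 as the vehicle array above the WT mean.

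Atp6v0a1, the neuronal form of the large membrane subunit, ran from 5.68 to 6.05 in WT (median 6.02), from 5.46 to 5.87 in vehicle (median 5.58) and from 5.56 to 6.05 in UA (median 5.72). All 7 vehicle arrays lay below the WT mean, with a difference of -0.30 (SE 0.095, adjusted p = 0.0670). Atp6v0c, the proteolipid that carries the protons, ran from 6.89 to 7.22 in WT (median 7.15), from 6.45 to 7.15 in vehicle (median 6.85) and from 6.68 to 7.16 in UA (median 6.84). The difference was -0.33 (SE 0.108, adjusted p = 0.0756).

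Atp6v0b apart, the other pump genes lay between -0.32 and -0.14. They were Atp6v1a at -0.32 and Atp6v1b2 at -0.30 (the catalytic and nucleotide-binding subunits of V1), Atp6v1e1 at -0.25 (a stator), Atp6v1h at -0.22 (a regulator), Atp6v0d1 at -0.22 (the collar on V0) and the accessory Atp6ap1 at -0.14. Dimmer second probes did not all show this: for Atp6v0a1 the second probe differed by 0.12 and for Atp6v1b2 by 0.05, while those of Atp6v0c (-0.29), Atp6v1h (-0.26) and Atp6ap1 (-0.18) lay on the same side as the first. Of 14 further subunits, 11 were tested and 0 were called, beside 5.07% of all genes, with a median of -0.09 and 5 above 0. At an unadjusted p under 0.05, 2 of these further subunits were higher and 2 lower, beside 11.6% and 12.4% of all genes.

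**Figure D3:**
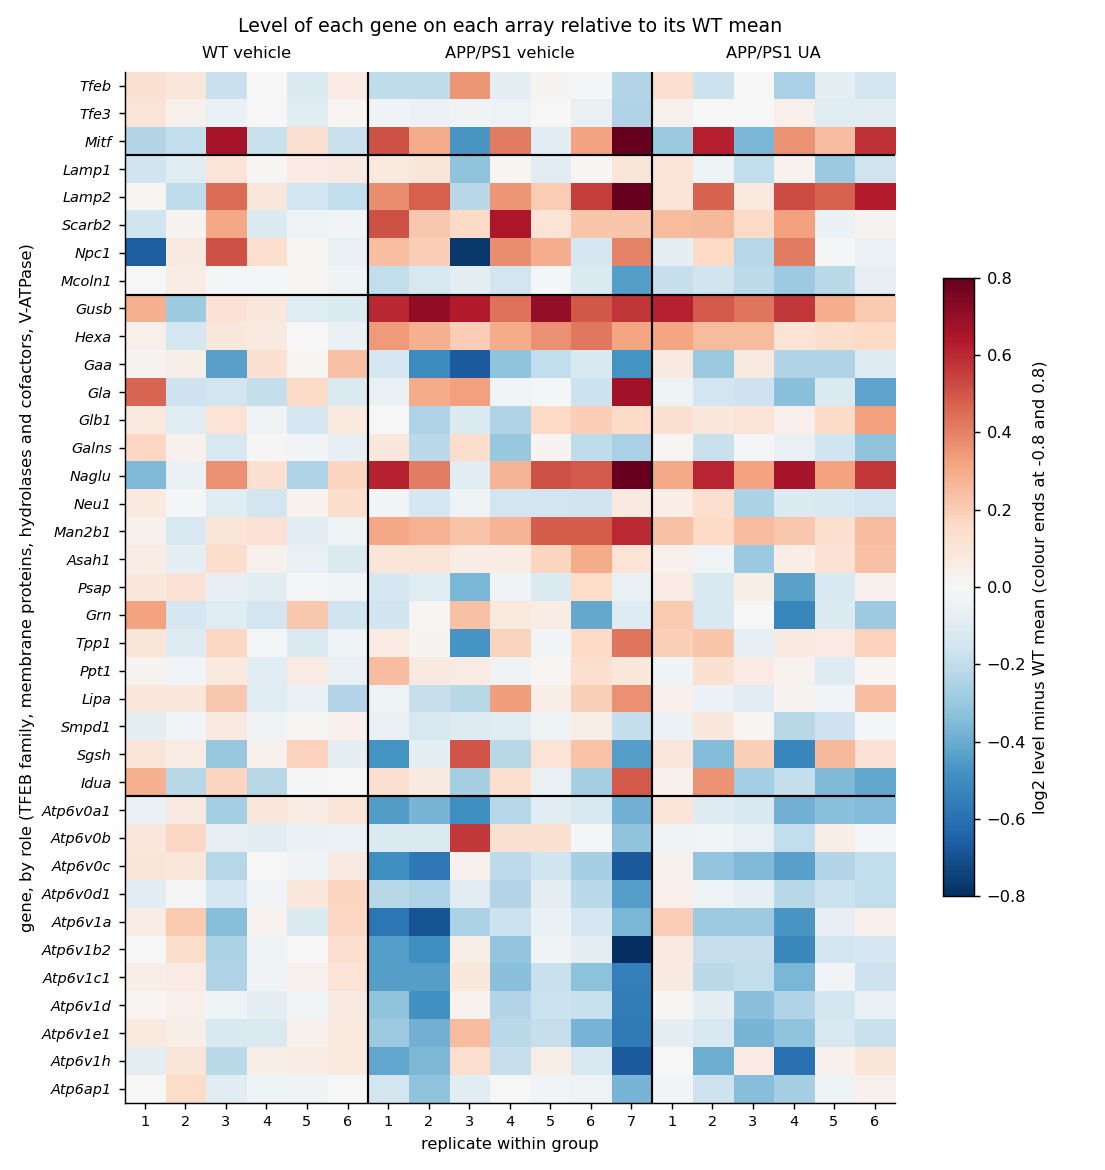
Log2 level of each of the 37 genes on each of the 19 arrays minus the gene's WT mean; columns are replicates in 3 groups and rows are genes in 4 roles. The Gusb, Hexa and Man2b1 rows are above the WT mean across both APP/PS1 groups, and the pump rows are lowest on vehicle replicates 1, 2 and 7 and UA replicate 4.

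Arrays of a group differed in how far the pump genes lay from WT. The mean of the 11 subunits, relative to the WT mean, was -0.36 and -0.41 on vehicle replicates 1 and 2, -0.52 on replicate 7, and between -0.18 and 0.02 on the other 4. In WT it ran from -0.18 to 0.10, with WT replicate 3 the lowest, and in UA from -0.36 to 0.04. Vehicle thus averaged -0.24 ± 0.19 (SD, n = 7) and UA -0.15 ± 0.13 (n = 6), and both groups overlapped WT.

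General neuron markers lay below WT in vehicle as the pump genes did, and hippocampal pyramidal and granule neuron markers were split. The mean of 7 neuron markers stood at -0.25 ± 0.17 (n = 7) in vehicle and -0.13 ± 0.10 (n = 6) in UA relative to WT. Of these 7 markers 0 were called in vehicle against WT, beside 2.38% of all genes called lower, and 6 lay below 0. Their summed linear level ran from 534 to 731 in WT, 453 to 586 in vehicle and 513 to 642 in UA. The neuron mean minus the pump mean, set to 0 at its WT mean, had an SD of 0.10 in WT, averaged -0.00 ± 0.06 in vehicle and 0.02 ± 0.10 in UA, and ran from -0.12 (UA replicate 6) to 0.20 (WT replicate 1) over single arrays. Of 8 pyramidal and granule neuron markers 3 lay above 0 and 5 below in vehicle minus WT, with a median of -0.05, and Neurod1 was called lower at -0.47 (adjusted p = 0.0167). Their summed level ran from 63.3 to 69.8 in WT, 56.3 to 69.1 in vehicle and 60.4 to 76.1 in UA. The summed level of the 9 choroid markers ran from 7.88 to 902 in WT, 1.22 to 1093 in vehicle and 3.72 to 790 in UA. The choroid mean was between 2.68 and 4.30 on the vehicle arrays with the lowest pump means (replicates 1, 2 and 7), 3.14 on UA replicate 4 and 3.65 on WT replicate 3. High choroid means also stood beside smaller pump differences: 3.75 with -0.10 on UA replicate 6, 2.93 with -0.11 on UA replicate 5, and 3.18 with -0.18 on vehicle replicate 4. UA replicate 3 had a pump mean of -0.20 with a choroid mean of -0.98. On vehicle replicate 3, where the pump mean was 0.02, it was -3.87. As a covariate, the choroid marker mean left 10 of 11 pump differences below 0, with a median of -0.19 and 0 called. The part of choroid plexus content, or of either neuron list, in the pump difference was not tested.

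**Figure D4:**
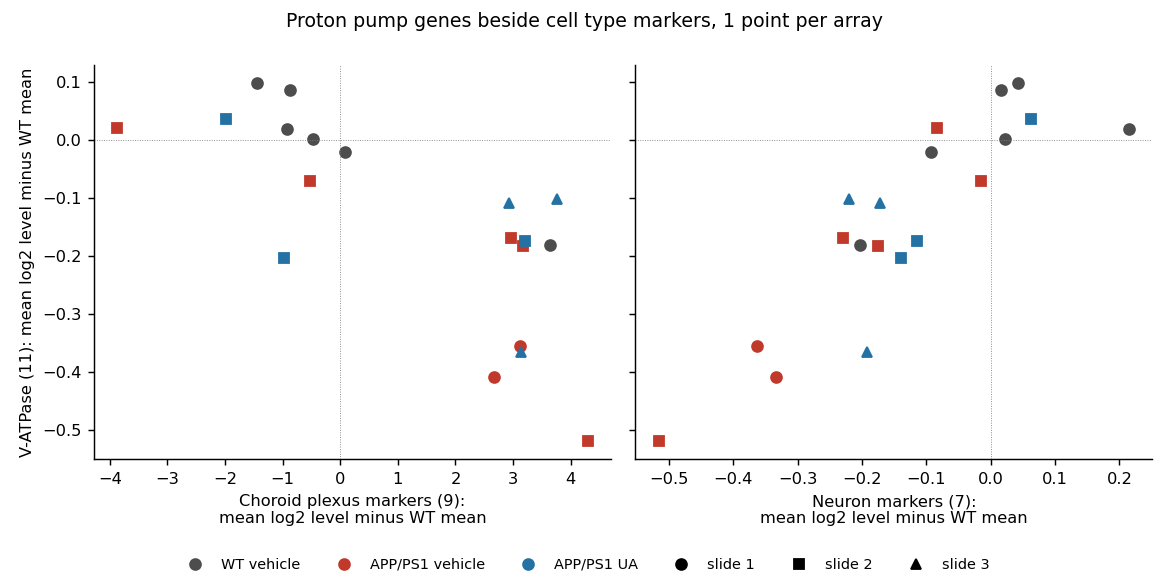
Mean log2 level of the 11 pump genes minus the WT mean (vertical) against the mean of 9 choroid plexus markers (left) and 7 neuron markers (right), 1 point per array, with group as colour and slide as symbol. The lowest pump mean, -0.52 on vehicle replicate 7, is at the highest choroid mean, 4.30, and at the lowest neuron mean.

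The test on pump genes turned on single arrays. Without vehicle replicate 3, the array of lowest signal, 9 of 37 genes were called, 4 of them pump genes and all 4 lower (Atp6v0c, Atp6v1c1, Atp6v1d and Atp6v1e1). Without WT replicate 3, 10 were called, with Atp6v0a1, Atp6v0c, Atp6v0d1 and Atp6v1c1 lower. Calls among all genes rose as well in that fit, from 1298 to 2262, the most of any fit with 1 array left out. No all-gene count stands beside the 9 called without vehicle replicate 3. Leaving out vehicle replicate 5 added Atp6v0a1, with 2035 calls among all genes. No other single array moved the count of 3, and Gusb, Hexa and Man2b1 were called whichever array was left out.

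Slide and sex bear on the genotype comparison. In the fit blocked on slide, which called 0 of the 37 and 76 of all genes, Gusb differed by 0.65, Hexa by 0.31 and Man2b1 by 0.29. Within slide 1, with 2 vehicle arrays, the differences were the same and 0 were called. The pump median was then -0.40, with 11 of 11 below 0. With sex as a covariate 6 of the 37 were called, the 3 hydrolases higher and Atp6v0a1, Atp6v1a and Gaa lower. Calls among all genes rose as well, from 1298 to 1966. Among male arrays Gusb alone of the 37 was called, beside 245 calls among all genes, with Hexa at 0.27 and Man2b1 at 0.27.

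The gap between hydrolases and pump genes was described array by array, with no test. The mean of the 18 hydrolases minus that of the 11 pump genes, set to 0 at the WT mean, was 0.32 ± 0.23 (SD, n = 7) in vehicle, 0.19 ± 0.09 (n = 6) in UA and 0.00 ± 0.13 (n = 6) in WT. Its range was -0.02 to 0.70 in vehicle and -0.16 to 0.20 in WT, so the groups overlapped. Taken alone, the hydrolase mean was 0.08 ± 0.06 in vehicle and the pump mean -0.24 ± 0.19.

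**Figure D5:**
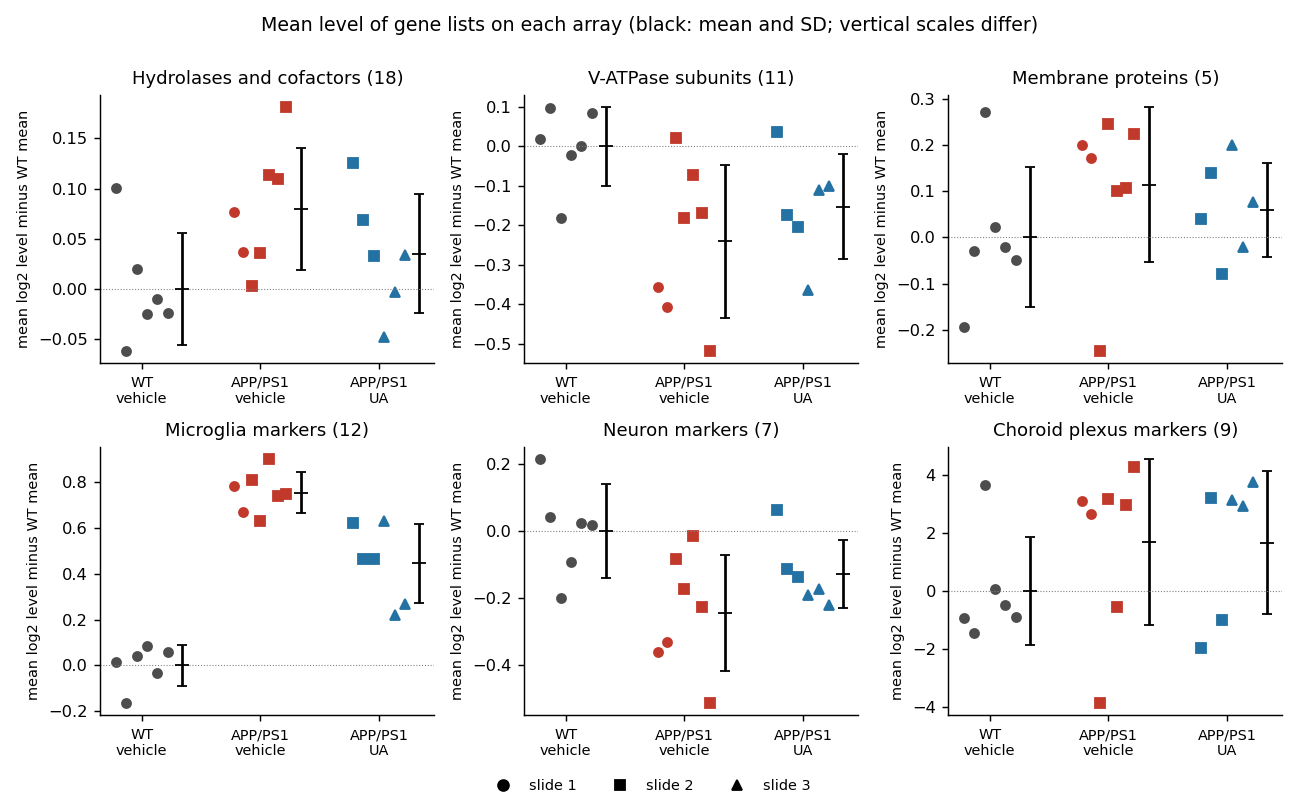
Mean log2 level of 3 roles (18 hydrolases, 11 pump genes, 5 membrane proteins) and of microglia, neuron and choroid plexus markers on each array, minus the WT mean, with mean and SD in black, slide as symbol and a separate vertical scale per panel. Microglia markers separate vehicle from WT without overlap, whereas the hydrolase and pump lists overlap.

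UA against APP/PS1 vehicle gave no call among the 37 genes. It gave none among all 25599 genes either (0%), with 5.85% higher and 9.61% lower at an unadjusted p under 0.05; with normexp background correction 1621 genes were called but 0 of the 37. At an unadjusted p under 0.05, 0 of the 37 were higher and 2 lower: Gla and Man2b1. Gla was at 6.48 to 6.87 on UA arrays (median 6.75), 6.74 to 7.58 on vehicle arrays (median 6.90) and 6.71 to 7.37 on WT arrays (median 6.77). All 6 UA arrays lay below both other means. Its difference from vehicle was -0.35 (SE 0.134, limma adjusted p = 0.230).

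For Man2b1 all 6 UA arrays lay below the vehicle mean. The difference was -0.17 (SE 0.068, limma adjusted p = 0.235). Gusb differed by -0.16 (SE 0.091, 95% interval -0.35 to 0.03, adjusted p = 0.406) and Hexa by -0.11 (SE 0.057, 95% interval -0.23 to 0.01, adjusted p = 0.354). For Hexa all 6 UA arrays were below the vehicle mean, and for Gusb 5 of 6. The UA arrays differed by slide: Hexa was at 2.81 to 2.87 on the 3 UA arrays of slide 2 and at 2.67 to 2.72 on the 3 of slide 3. Within slide 2, UA differed from vehicle by -0.05 for Hexa, -0.06 for Gusb, -0.20 for Man2b1 and -0.28 for Gla, and none passed. Slide 3 holds UA arrays alone, so its part cannot be told apart from the group. Microglia markers differed in the same sense, with 11 of 12 below 0, a median of -0.27 and 0 called, and their part was not tested.

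By the brightest probe, pump genes lay above vehicle in UA arrays for 10 of 11 subunits, by a median of 0.11, the exception being Atp6v0b at -0.08. Second probes of Atp6v0a1 (-0.15), Atp6v1b2 (-0.10) and Atp6ap1 (-0.04) lay below 0, and those of Atp6v0c (0.02) and Atp6v1h (0.10) above it. With the mean of kept probes 8 of 11 subunits were above 0, with a median of 0.05. None passed, the smallest adjusted p being 0.419 for Atp6v1c1, which differed by 0.16 (SE 0.097, 95% interval -0.04 to 0.37). Atp6v1d differed by 0.13 (SE 0.085), Atp6v0a1 by 0.11 (SE 0.095) and Atp6v0c by 0.08 (SE 0.108). Neuron markers lay above vehicle as well, in 7 of 7 cases, with a median of 0.11 and 0 called, while the pyramidal and granule neuron markers split 4 above and 4 below, with a median of 0.01 and 0 called. Within slide 2 the pump median was 0.07, with 9 of 11 above 0. The TFEB family differed by -0.04 for Tfeb (SE 0.093), 0.05 for Tfe3 (SE 0.054) and -0.12 for Mitf (SE 0.229). Dimmer probes of Tfeb differed by -0.32 (limma adjusted p = 0.313 over all kept probes), -0.07 and -0.19. Those of Mitf, at 0.26 and 0.16, had the other sign than its brightest probe, and none of these probes passed. The membrane proteins differed by between -0.14 (Scarb2) and 0.01 (Lamp2).

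UA against WT, which shares its arrays with both comparisons above, gave 0 calls among the 37, against 24 of 25599 genes (0.0938%). UA and WT share no slide, so in a direct comparison group and slide cannot be told apart. With slide as a block, which links them through the vehicle arrays alone, 4 of all genes were called. At an unadjusted p under 0.05, 5 of the 37 were higher and 2 lower, beside 4.19% and 4.64% of all genes. Gusb was 0.43 above WT (SE 0.094, adjusted p = 0.0892), with all 6 UA arrays above the WT mean. Without WT replicate 1, its highest WT array at 0.27, Gusb passed at 0.49 (adjusted p = 0.0390). Hexa was 0.21 above WT (SE 0.059, adjusted p = 0.302) and Man2b1 0.20 (SE 0.071, adjusted p = 0.425), and neither overlapped WT. Naglu was 0.46 above WT (SE 0.147, adjusted p = 0.378) and Lamp2 0.38 (SE 0.155, adjusted p = 0.502).

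Mcoln1 was the other gene whose UA and WT arrays did not overlap, at -0.19 (SE 0.066, adjusted p = 0.445). All 6 UA arrays lay at 3.90 or below and all 6 WT arrays at 3.93 or above. How many of all genes separate UA from WT in this way was not counted, so no base rate stands beside these genes. Atp6v0c was at -0.25 (SE 0.112, adjusted p = 0.530). All 11 pump differences from WT were below 0, with a median of -0.15, where vehicle had -0.28. Both values share the WT arrays, and the difference between them, UA against vehicle, did not pass for any subunit. Of the 21 further membrane proteins, Laptm5 alone was called in UA against WT, at 0.68 (SE 0.101, adjusted p = 0.00495), beside 0.0938% of all genes. Cd68 (0.48, adjusted p = 0.0994) was not called. As UA and WT share no slide, the part of slide in these values cannot be told apart from the group.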

How the data were processed

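One array per mouse was read from 19 scanner files. Per the file headers, the authors made the processed green intensity with Agilent Feature Extraction 12.0.3.1 under a 2-colour protocol, background-subtracted and dye-normalized; the labels describe no red sample. The deposited values of the series are a score: the log10 signal centred and divided by its SD over each array's spots. Here, control spots and non-uniform spots were left out, spots of a probe averaged, and log2 signal minus the array's 75th percentile taken. Probes well above background on at least 6 arrays were kept (33450). Accessions were named through RefSeq (GRCm38.p6), and the brightest probe stood for a gene. limma 3.58.1 in R 4.3.3 with data.table (version 1.17.8) gave 3 comparisons from 1 fit, 2-sided, with Benjamini-Hochberg adjustment over 25599 genes (16103 with a symbol), after a test on simulated data. Precision is limited by the number of arrays. The members, gene lists and rules were chosen with earlier results of these data known. Named with full values were members past the threshold and, per role and comparison, the 2 of smallest p; other genes appear with a difference only. The list of further hydrolases is not reported here. Samples were treated as unpaired. Deviations of same-numbered arrays correlated between -0.55 and 0.39. Differently numbered arrays were not compared, so pairing by number is not excluded.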

Additional observations from a re-analysis of the deposited data

Results flagged for a closer look

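Each of the 37 genes was looked at in each of the 3 groups, 111 in all, for a lowest or highest array set far from the rest of its group, a rule that chance meets in about 5% of groups; 2 were found. Tfe3 on APP/PS1 vehicle replicate 7 was low, at 2.62, where the next array was at 2.81. This array also had the lowest pump and neuron marker means and the highest choroid plexus marker mean of its group. Gaa on WT replicate 3 was low, at 6.70, where the next array was at 7.15. That is the WT array with choroid markers 3.65 above the WT mean. The part of choroid plexus content in either value was not tested.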

How the results depend on the processing

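Limits. WT lies on 1 slide and UA on the other 2, sex was unbalanced, choroid plexus content varied widely, and a 2-colour protocol processed the green signal. All 37 genes were above background on every array. Normexp on the median signals, the signal before dye normalization and the choroid covariate were chosen after the data were seen.

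In vehicle against WT the 3 calls among the 37 genes became 0 with slide as a block and 0 within slide 1, 6 with sex as a covariate, 1 among male arrays, and 3 to 10 when 1 array was left out; under the other settings it was 3 or 4. Among all genes 1298 became 641 before dye normalization, 804 in the deposited table, 513 with z-scores, 353 with no filter, 76 with slide as a block, 22 within slide 1, 1966 with sex, 245 in males, 436 with the 2 groups alone, and 389 to 2262 without 1 array. The split of higher and lower, 688 and 610, was 830 and 448 with the percentile over probes above background on all arrays, 323 and 481 in the deposited table, 442 and 199 before dye normalization, and 888 and 480 with the choroid covariate. In UA against vehicle 0 of the 37 were called throughout, and the 0 among all genes became 1621 with normexp, 51 with the choroid covariate and 0 to 10 without 1 array. In UA against WT the 37 genes gave 0, or 0 to 1 without 1 array, and the 24 among all genes became 14 with normexp, 41 with the filter on all arrays, 38 with every probe, 4 with slide as a block and 9 in males. Apart from settings that drop or adjust arrays, the cause was not tested.

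A fit with a replicate block (the replicate number as a term) kept 3 calls among the 37 in vehicle against WT and 0 in the other comparisons, with 338 calls among all genes in vehicle against WT and 12 in UA against WT. Mitf in UA against vehicle was then 0.0239.

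Sign changes were confined to genes near 0 or with several probes, and none concerned a called value. In vehicle against WT, Lamp1 was 0.0107 with the percentile over probes above background on all arrays, 0.0213 with quantile normalization, 0.0488 with normexp, 0.067 before dye normalization, 0.0208 in the deposited table, 0.0937 with z-scores, 0.0585 as the mean of probes and 0.0868 with slide as a block or within slide 1, and ran from -0.0481 to 0.0344 without 1 array. Tfeb was 0.0876 as the mean of probes and 0.0488 with the choroid covariate. In UA against vehicle, Lamp2 was -0.000693 with the percentile over probes above background on all arrays, -0.0182 as the mean of probes and -0.126 with slide as a block or within slide 2, and ran from -0.0867 to 0.0905 without 1 array. Lamp1 was 0.016 with slide as a block and within slide 2. Tfeb was 0.0151 with normexp, 0.00361 in the deposited table and -0.0822 to 0.0285 without 1 array. Mcoln1 was 0.0469 with normexp, Mitf 0.102 as the mean of probes, 0.0974 in males and -0.244 to 0.0239 without 1 array, and Atp6v0a1 -0.0228 as the mean of probes. In UA against WT, Lamp1 was 0.0244 with normexp, 0.00514 before dye normalization and 0.103 with slide as a block. Tfe3 was 3.71e-05 with quantile normalization, 0.021 with z-scores, 0.0478 with slide as a block, 0.00766 with the choroid covariate and -0.035 to 0.00377 without 1 array. With the choroid covariate Tfeb was 0.00936 and Mitf -0.0811.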
